A study of Homo sapiens and Mus musculus with 16 samples.

Results

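Open chromatin at the genes of the EGFR family was followed in 4 deposited lists of accessible regions from pancreatic cancer cell lines. The family was taken as 4 receptor genes (EGFR, ERBB2, ERBB3 and ERBB4) and 6 ligand genes (EGF, AREG, EREG, TGFA, HBEGF and BTC), chosen by name. A region was assigned to a gene when it overlapped the gene body or the 50 kb on either side, in hg38 for human cells and mm10 for mouse cells. The windows held 145 of 118107 regions of the control list, 121 of 97047 of the HNF4G-KO list, 111 of 68074 of the tumor list and 125 of 80843 of the mets list. EREG and AREG are neighbours, and 6, 5, 9 and 9 of these regions, respectively, lay in both of their windows and were counted once in totals for the family.

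The human pair compared HPAF-II, an established pancreatic adenocarcinoma line, treated with CRISPR-Cas9 but labelled wild type (control), with the same line after CRISPR knockout of HNF4G, a nuclear receptor that binds DNA (HNF4G-KO). The mouse pair compared untreated cell lines of the KPC model of pancreatic cancer, 1 derived from a primary tumor (tumor) and 1 from liver metastases (mets), which the study described as matched and isogenic. Accessibility was measured by Omni-ATAC-seq, in which a transposase cuts and tags open DNA. Every group had 4 labelled replicates (16 samples in all) but a single list, so no spread between replicates and no test between conditions could be computed, and the depth of the libraries is unknown. HNF4G-KO cells were pooled clones in the study's account, and each KPC group stands for 1 line, so line and site of origin cannot be told apart. The lists hold no expression values and do not check the loss of HNF4G itself.

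Receptors of this family are tyrosine kinases that pair with each other once a ligand binds, and they signal to the RAS–MAPK and PI3K–AKT pathways. Their ligands are made as membrane-bound precursors and are shed by proteases. EGFR and several of its ligands are known to be raised in pancreatic cancers. ERBB2 binds no known ligand and acts as a partner, and the kinase of ERBB3 is weak, so both depend on other members.

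Each region carries a score of unstated scale, so it was used only as a percentile, the share of regions of its own list that score lower, counting tied regions as midway. A region was called shared when it overlapped a region of the partner list by at least 1 bp, and control-only, KO-only, tumor-only or mets-only when it did not. For a shared region, the change is the percentile of its partner minus its own. As the longer list of a pair reaches further down into weak regions, changes are read beside the median of all shared regions, which was -4.65 percentile points from control to HNF4G-KO and 3.67 from tumor to mets. A lower score can come from fewer cells with the site open or from less cutting in each cell, and these cannot be told apart.

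All 5 epithelial marker genes examined (EPCAM, KRT8, KRT18, KRT19 and CDH1) had a region at a start site in every list. Neither endothelial marker (PECAM1, CDH5) had one in HPAF-II cells and 1 of 2 had one in each KPC list, while 3 of 4 fibroblast markers had one in HPAF-II cells and 1 of 4 in the KPC lists. PTPRC and CD3E, which mark leukocytes, lacked a region in both human lists, and 1 of 3 immune markers, CD68, had one in each list. CD68 stood at 96.8 in control and 95.1 in HNF4G-KO. In the KPC lists PECAM1 stood at 84.3 in tumor and 70.4 in mets, above the epithelial markers, so presence of a region does not by itself identify a cell type. Of 3 hepatocyte markers, 1 had a region in control, HNF4G-KO and tumor and none had one in mets.

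In HPAF-II cells EGFR (chr7:55019017-55211628), which binds most ligands of the family, had an open region over its first start site at percentile 80.6 in control and 84.5 in HNF4G-KO, and a weaker one over a start inside the gene at 50.5 and 34.8. ERBB2 (chr17:39687914-39730426) stood at 85.3 and 92.4 at its first start. At internal starts of ERBB2, regions stood at 76.05 and 83.1 and at 77.5 and 81.3, and a control-only one at 4.44. ERBB3 (chr12:56076799-56103505) had no region within 1 kb of its first annotated start but 3 near starts inside the gene. The strongest of these stood at 80.9 and 81.9, and the other two went from 48.4 to 18.8 and from 58.3 to 68.5. The strongest start-site region of each of these receptor genes thus ranked above percentile 75 of both human lists, while the regions at other starts were spread from 4.44 to 77.5 in control. ERBB4 (chr2:211375717-212538841), a receptor for neuregulins and some EGF-like ligands, had no region at any of its start sites in any of the 4 lists.

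Among the ligand genes, TGFA (chr2:70447284-70554193), which encodes a close relative of EGF made by many carcinomas, stood at percentile 88.9 in control and 85.9 in HNF4G-KO. BTC (chr4:74744759-74794523), encoding betacellulin, stood at 84.5 and 84.0, and AREG (chr4:74445136-74455005), encoding amphiregulin, at 75.9 and 72.9. EREG (chr4:74365145-74388749), encoding epiregulin, was ranked higher in HNF4G-KO, at 62.5 in control and 72.2 in HNF4G-KO. Over the start of HBEGF (chr5:140332843-140346603), whose product is the heparin-binding EGF-like factor, control held 1 wide region at 74.0, which overlapped 3 narrower HNF4G-KO regions. The one over the start itself stood at 59.6, 14.3 points lower, the next, with its edge 288 bp from the start, at 49.7, and the one with the longest overlap, centred 1.52 kb into the gene, at 69.5. The first starts of these 5 ligand genes were thus open in both lists. The strongest regions at those of TGFA, BTC, AREG and EREG moved by less than 10 points, whereas for HBEGF the value depends on which HNF4G-KO region is taken.

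EGF (chr4:109912883-110013766) was the exception. A narrow region of 205 bp at its first start was control-only and weak, at percentile 21.2, whereas a region over an internal start stood at 80.2 in control and 80.6 in HNF4G-KO. The bases of the control-only region that precede the EGF start are shown because this was the only first start of a member open in a single list (chr4:109912719-109912882, hg38, plus strand). Capitals mark the letters TGANTCA, a loose form of the AP-1 consensus with any middle base, read on either strand. All counts of AP-1 letters here use this form, so matches such as TGATTCA are included.

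EGF start, control-only: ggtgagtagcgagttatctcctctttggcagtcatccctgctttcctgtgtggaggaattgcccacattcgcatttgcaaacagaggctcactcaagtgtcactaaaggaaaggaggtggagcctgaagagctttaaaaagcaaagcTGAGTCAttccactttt

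**Figure D1:**
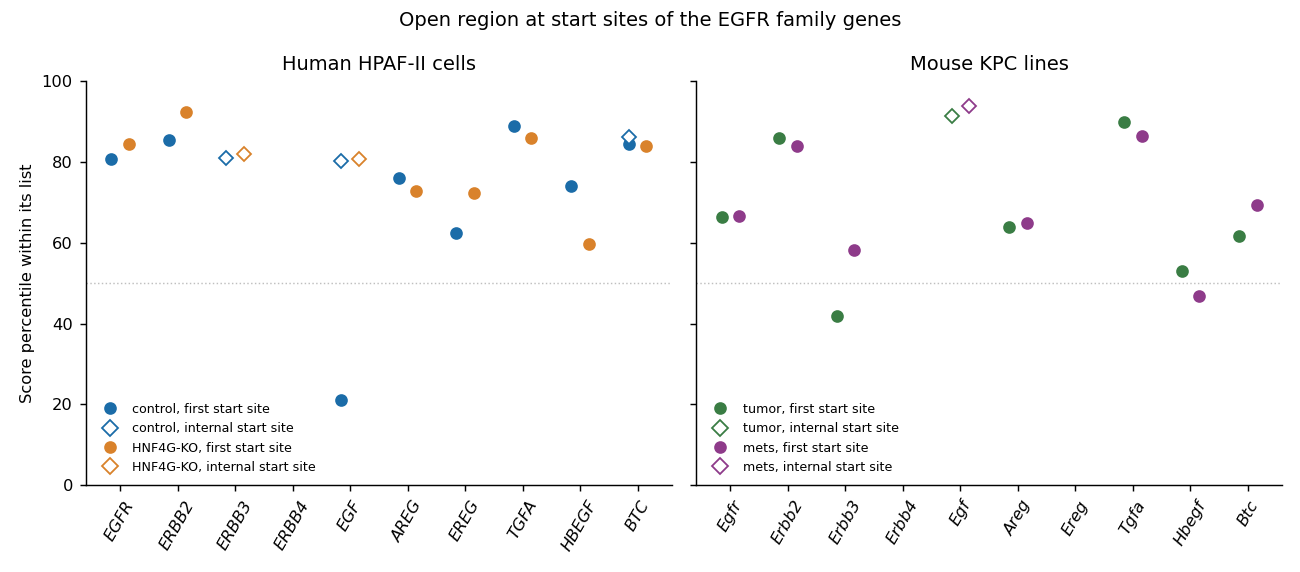
Score percentile within its list (vertical axis, 0 to 100) of the strongest open region at start sites of the 10 genes (horizontal axis), in human control and HNF4G-KO and mouse tumor and mets. Filled circles are regions within 1 kb of the first annotated start and open diamonds those at an internal start, drawn where a stronger one exists there; a gap means no region. The EGF first start in control stands alone at 21.2, ERBB4 is empty in all lists and Ereg in both mouse lists.

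In the KPC lines the same receptors were open at their starts. Egfr stood at percentile 66.4 in tumor and 66.6 in mets, Erbb2 at 86.0 and 84.0, and Erbb3 at 41.8 and 58.2, the last being 16.4 points higher in mets. For the ligands, Tgfa stood at 89.97 and 86.5, Areg at 64.0 and 64.9, Btc at 61.8 and 69.4, and Hbegf at 53.1 and 46.7. Ereg had no region within 1 kb of its start in either line, its nearest lying 2.13 kb upstream at 67.8 in tumor and 60.9 in mets. Egf had none at its first start but a strong one at an internal start, at 91.4 and 93.8.

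The first question for the human pair was which family regions were absent once HNF4G was lost. Of 145 control regions, 31 were control-only, or 21.4% (95% Wilson interval 15.5 to 28.8, which like the others here covers counting error only), against 25% of all control regions. Of 121 HNF4G-KO regions, 3 were KO-only, or 2.48% (0.847 to 7.04), against 6.76% of all. The family share lay near the background in the first case, and in both cases the background stood within the interval. All 31 control-only regions of the family lay below the middle of the control list: 17 of 27 regions up to percentile 25, 14 of 44 from 25 to 50, 0 of 35 from 50 to 75 and 0 of 39 above. Over all control regions the shares were 65.9%, 30.3%, 3.59% and 0.129%, so absence followed rank across the genome and at these genes alike.

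EGF held the largest control-only share of the members with at least 5 regions, 8 of 13 (61.5%, 35.5 to 82.3), where all regions of chromosome 4 together had 33.9%. Its strongest control-only region was intronic, 34.8 kb into the gene, at percentile 40.4. The receptor genes had control-only shares of 7 of 30 for EGFR, 3 of 16 for ERBB2, 3 of 21 for ERBB3 and 2 of 4 for ERBB4. The other ligand genes had 4 of 22 for TGFA, 2 of 13 for AREG, 1 of 11 for EREG, 1 of 17 for HBEGF and 1 of 4 for BTC. The interval of each of these 9 genes holds the background share.

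The 3 KO-only regions were all weak, at percentile 2.35 in the ERBB2 window, 5.19 in the ERBB3 window and 13.0 in an intron of EGF. For the 7 genes with no KO-only region the counts are small, so that 0 of 24 for EGFR allows up to 12.5% and 0 of 19 for TGFA up to 15.8%.

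**Figure D2:**
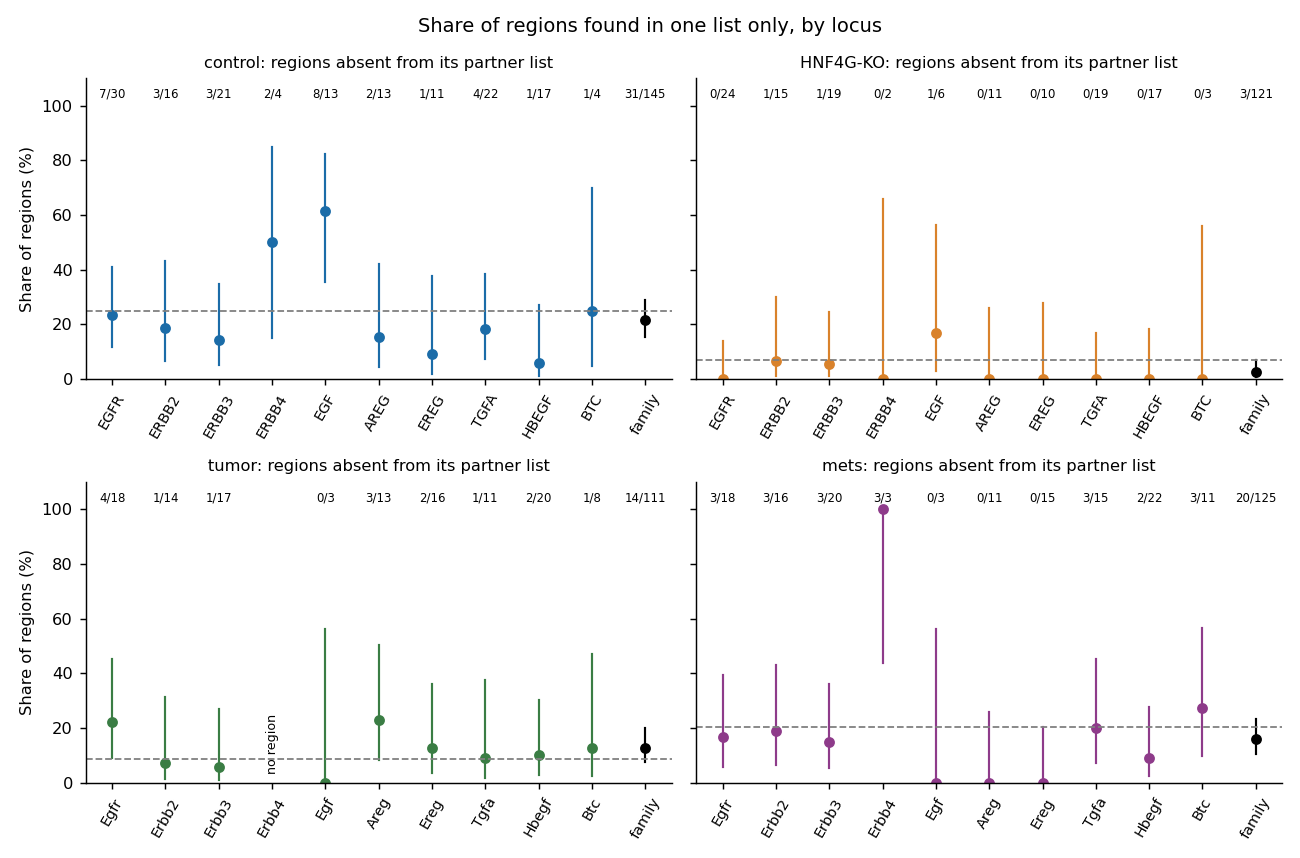
Share of regions found in 1 list only (vertical axis, %), for each gene and for the family in each of the 4 lists; bars are 95% Wilson intervals, the dashed line is the share over all regions of that list, and counts are printed above. EGF in control (8 of 13), Egfr in tumor (4 of 18) and Erbb4 in mets (3 of 3) have intervals that lie wholly above their lines. The lines take no account of the rank of the regions.

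The shared regions of ligand and receptor genes differed in rank between the 2 human lists. Over 58 shared ligand regions the median change was -10.4 points (95% order-statistic interval over regions -19.4 to -4.41), with 50 of 58 ranked lower in HNF4G-KO. Over 56 shared receptor regions it was -3.28 (-4.84 to 0.134), with 34 of 56 ranked lower. Of all shared control regions 70.01% were ranked lower, so the receptor share lay below the background and the ligand share above it. When only shared regions were ranked, so that the unequal list lengths drop out, 35 of 58 ligand and 21 of 56 receptor regions were ranked lower, beside 41332 of 88632 of all. At least 10 points were lost by 31 ligand and 14 receptor regions, 45 of 114 (39.5%) for the family, against 33.6% of all shared control regions. At least 10 points were gained by 4 of 114, 3 at receptor genes and 1 at a ligand gene, against 7.75% of all.

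Place moved with this difference. Of the 71 receptor regions of control 27 lay within 1 kb of a start site of some gene, and of the 74 ligand regions 15 did. Among distal regions alone the median change was -17.8 for 44 ligand regions and -4.46 for 33 receptor regions, and -6.28 for all distal regions. Among start-site regions it was -3.72 for 14 ligand regions, 0.642 for 23 receptor regions and -1.47 for all. Chromosome moved with it as well. Distal ligand regions on chromosome 4 had a median of -19.4, where all distal regions of that chromosome had -12.2; those of TGFA had -17.5, against -8.66 on chromosome 2, and those of HBEGF had -10.7, against -7.20 on chromosome 5. On the ranks among shared regions the medians were -5.05 for ligands (-8.70 to 1.49), 1.58 for receptors (-0.434 to 6.02) and 0.676 for all. Relative to shared regions of the same score decile, which takes account of region strength, they were -6.68 for ligands (-11.1 to -0.252) and 1.28 for receptors (-2.31 to 3.39). Regions of 1 gene share a locus and are not replicates, and the part of place and chromosome in the difference was not tested further.

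At the level of genes, the median change of shared regions was -19.0 for EGF (5 regions), -17.7 for TGFA (18), -15.5 for EREG (10), -10.03 for AREG (11), -7.50 for HBEGF (16), -3.87 for EGFR (23), -2.49 for ERBB3 (18) and 3.29 for ERBB2 (13). Of these 8 members with at least 5 shared regions, 4 lay at or under -10, as did 10.5% of 15143 protein-coding genes, and EREG and AREG share regions. Ranked among shared regions only, the medians were -8.25 for EREG, -7.08 for EGF, -5.88 for TGFA, -1.34 for AREG, -0.434 for EGFR, 0.701 for HBEGF, 1.48 for ERBB3 and 8.93 for ERBB2, beside 0.676 for all. The order of the lowest genes thus changed, AREG and EGFR came near 0, and HBEGF and ERBB3 turned sign. On the first scale, 1.08% of genes had a lower median than EGF and 1.55% a lower one than TGFA, while 97.4% were below ERBB2. ERBB4 and BTC had 2 and 3 shared regions and were left out of this ranking.

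**Figure D3:**
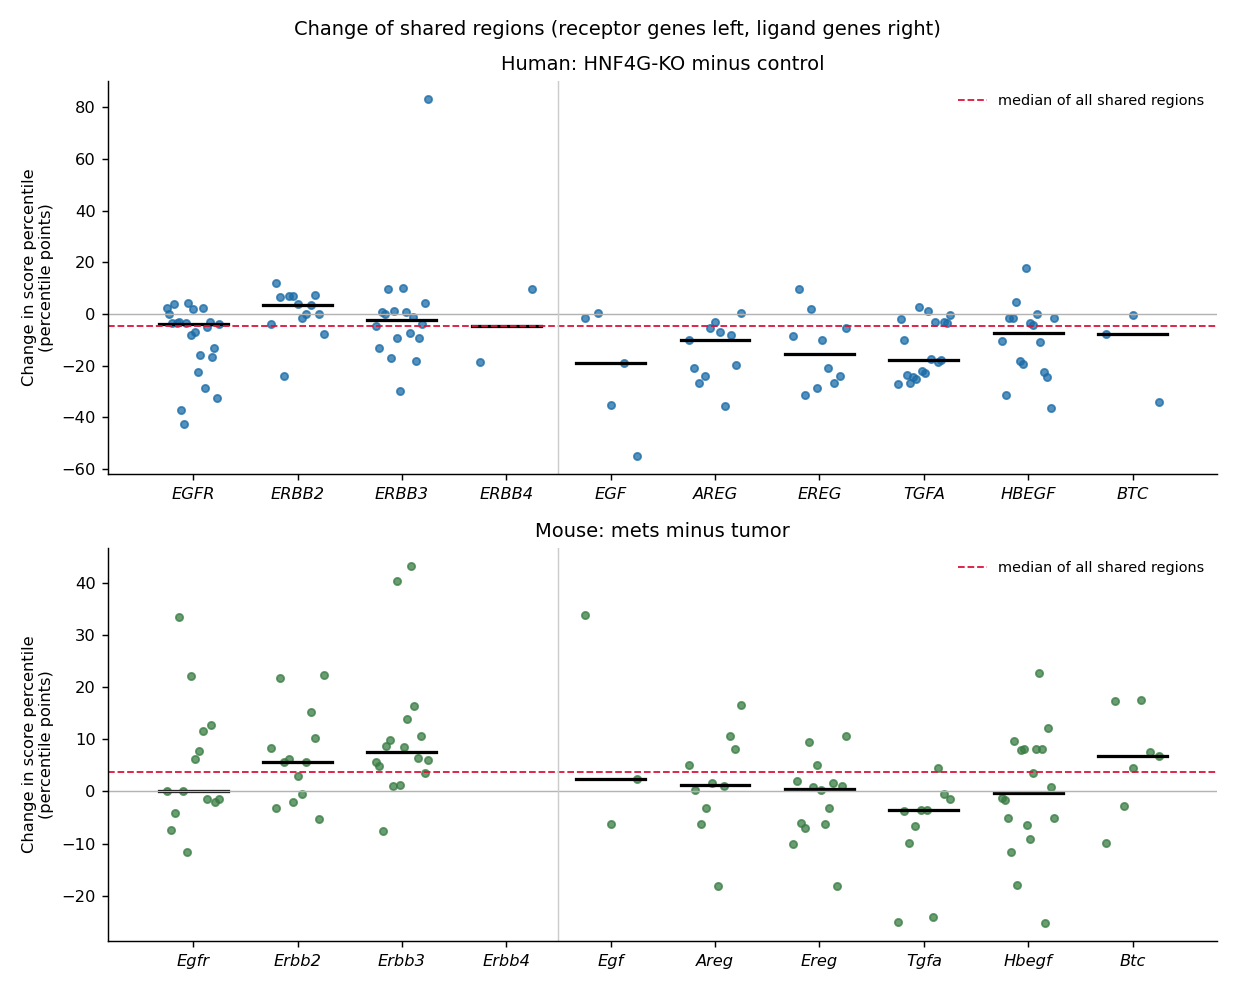
Change in score percentile of each shared region (points, 1 per region, in genomic order within a gene), HNF4G-KO minus control above and mets minus tumor below, with the 4 receptor genes left of the grey line and the 6 ligand genes right of it. Black bars are gene medians and the dashed line is the median of all shared regions (-4.65 and 3.67); EGF, EREG and TGFA sit lowest in the human pair and Tgfa in the mouse pair.

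At TGFA most strong regions stayed near their rank, and most middling ones inside the gene did not. Relative to all shared control regions of the same score decile, the TGFA median change was -7.455, beside -17.7 on the first scale. On that measure 12 of 18 shared TGFA regions lay below the median of their decile. Its strongest region, in an intron 29.5 kb from the start, stood at percentile 96.3 in control and 97.5 in HNF4G-KO, and 2 upstream regions at 95.8 and 93.4 in control stood at 92.3 and 92.9. The upstream region at 95.8 also overlapped another, narrower HNF4G-KO region at 79.8. A strong region downstream of the gene, 150 kb from the start, had the largest fall of the window, from 84.5 to 57.4. Of 11 shared regions inside the gene and away from start sites, 8 were ranked lower in HNF4G-KO by 17.5 to 26.7 points, all of them at 34.1 to 66.9 in control. The other 3 comprised the strongest region, one at 62.2 that stood at 64.7, and one at 31.0 that stood at 27.7. The region inside TGFA with the largest fall in rank, an intronic one from 34.1 to 7.41, is shown (chr2:70471180-70471461, hg38, plus strand). Capitals mark the AP-1 letters and the RUNX letters TGTGGTTT, the latter on the minus strand.

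TGFA intron: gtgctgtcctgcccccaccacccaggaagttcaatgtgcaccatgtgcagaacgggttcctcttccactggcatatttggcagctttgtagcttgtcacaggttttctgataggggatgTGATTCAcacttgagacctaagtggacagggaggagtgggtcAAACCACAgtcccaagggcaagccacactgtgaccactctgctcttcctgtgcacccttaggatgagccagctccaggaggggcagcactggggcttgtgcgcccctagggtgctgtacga

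EREG and AREG lie in the same orientation on chromosome 4, where 2798 of 3397 shared control regions were ranked lower in HNF4G-KO. The 6 control regions common to both windows included 5 shared with HNF4G-KO, all ranked lower there. These went from percentile 63.0 to 53.0, from 26.2 to 5.19, from 68.1 to 41.4, from 67.9 to 44.04 and from 61.6 to 56.1 in genomic order. Inside AREG, an intronic region 6.21 kb from the start went from 59.3 to 23.7, and inside EREG one 5.87 kb from the start went from 52.7 to 21.4. A second EREG intron region, at 78.6 in control, stood at 80.7 in HNF4G-KO, and the strongest region of the window, 44.3 kb upstream of EREG towards EPGN (which encodes epigen, another ligand of EGFR), went from 95.5 to 87.1. The AREG intron region is printed as the largest loss of rank among the distal AREG regions (chr4:74451197-74451496, hg38, plus strand), with the AP-1 letters in capitals.

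AREG intron: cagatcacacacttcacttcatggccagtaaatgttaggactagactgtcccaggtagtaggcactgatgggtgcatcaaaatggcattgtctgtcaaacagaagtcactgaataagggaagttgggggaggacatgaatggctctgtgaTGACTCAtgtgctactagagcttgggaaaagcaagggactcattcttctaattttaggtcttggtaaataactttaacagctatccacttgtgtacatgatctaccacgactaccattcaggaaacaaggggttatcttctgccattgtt

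**Figure D4:**
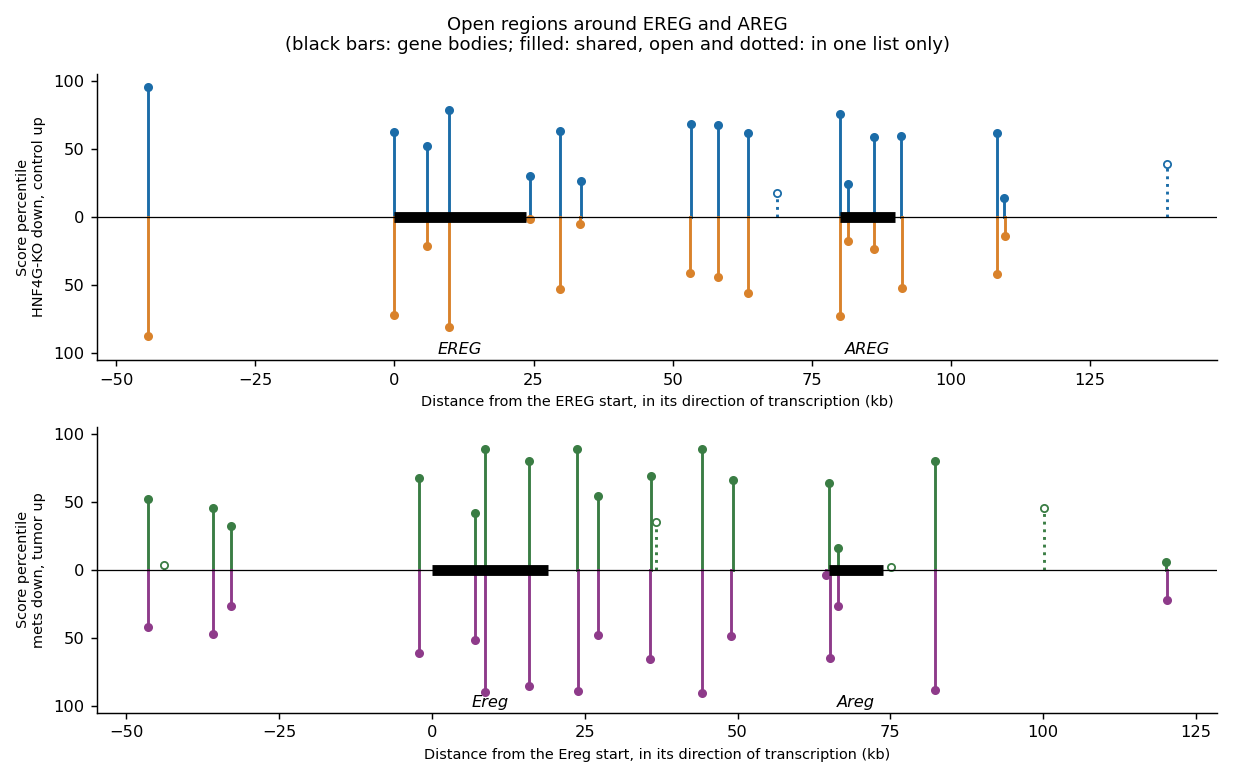
Open regions around EREG and AREG, placed by distance from the EREG start (horizontal axis, kb) with height giving score percentile (vertical axis, control or tumor upwards, HNF4G-KO or mets downwards). Black bars are gene bodies, filled circles shared regions and open circles regions in 1 list only; the human regions between the genes are shorter downwards, whereas the shared mouse ones there differ by at most 18.2 points.

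EGFR kept its strongest regions, which was general: 38 of 29535 control regions above percentile 75 were absent from HNF4G-KO. A region 22.9 kb upstream (chr7:54995640-54996566) stood at percentile 98.6 in control and 95.3 in HNF4G-KO, one in an intron 114 kb into the gene at 96.7 and 98.8, and one 33.3 kb upstream at 94.7 and 94.6. In contrast, 2 intronic regions of middle rank had the largest falls in rank of the family after one other, one 33.3 kb into the gene, from 59.7 to 17.3, and one 15.5 kb in, from 63.6 to 26.5. That one, from 57.4 to 2.35, was in the EGF window but over a start site of ELOVL6, a fatty acid elongase (chr4:110059744-110060443). Relative to all shared control regions of the same score decile, the EGFR median change was -2.06, beside -3.87 on the first scale. On that measure 14 of 23 shared EGFR regions lay below the median of their decile. The first of the EGFR regions is shown with the reverse complement of the GATA letters AGATAAG in capitals (chr7:55052157-55052456, hg38, plus strand).

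EGFR intron: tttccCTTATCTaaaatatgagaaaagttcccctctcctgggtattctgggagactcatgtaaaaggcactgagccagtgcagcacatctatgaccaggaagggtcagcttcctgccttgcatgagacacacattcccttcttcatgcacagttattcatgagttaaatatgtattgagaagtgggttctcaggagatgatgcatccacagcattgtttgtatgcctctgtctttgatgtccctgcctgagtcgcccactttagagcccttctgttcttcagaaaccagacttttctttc

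The largest gains in rank were of another kind. A region of 271 bp near MYL6B in the ERBB3 window went from percentile 9.22 to 92.4, but overlapped its wide HNF4G-KO partner by 53 bp, and that partner also overlapped a neighbouring control region at 88.3. A region 15.0 kb downstream of the HBEGF start went from 1.13 to 18.8 and likewise shared its partner. A region 24.0 kb upstream of ERBB2, near TCAP, paired 1 to 1 and went from 65.6 to 77.6.

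**Figure D5:**
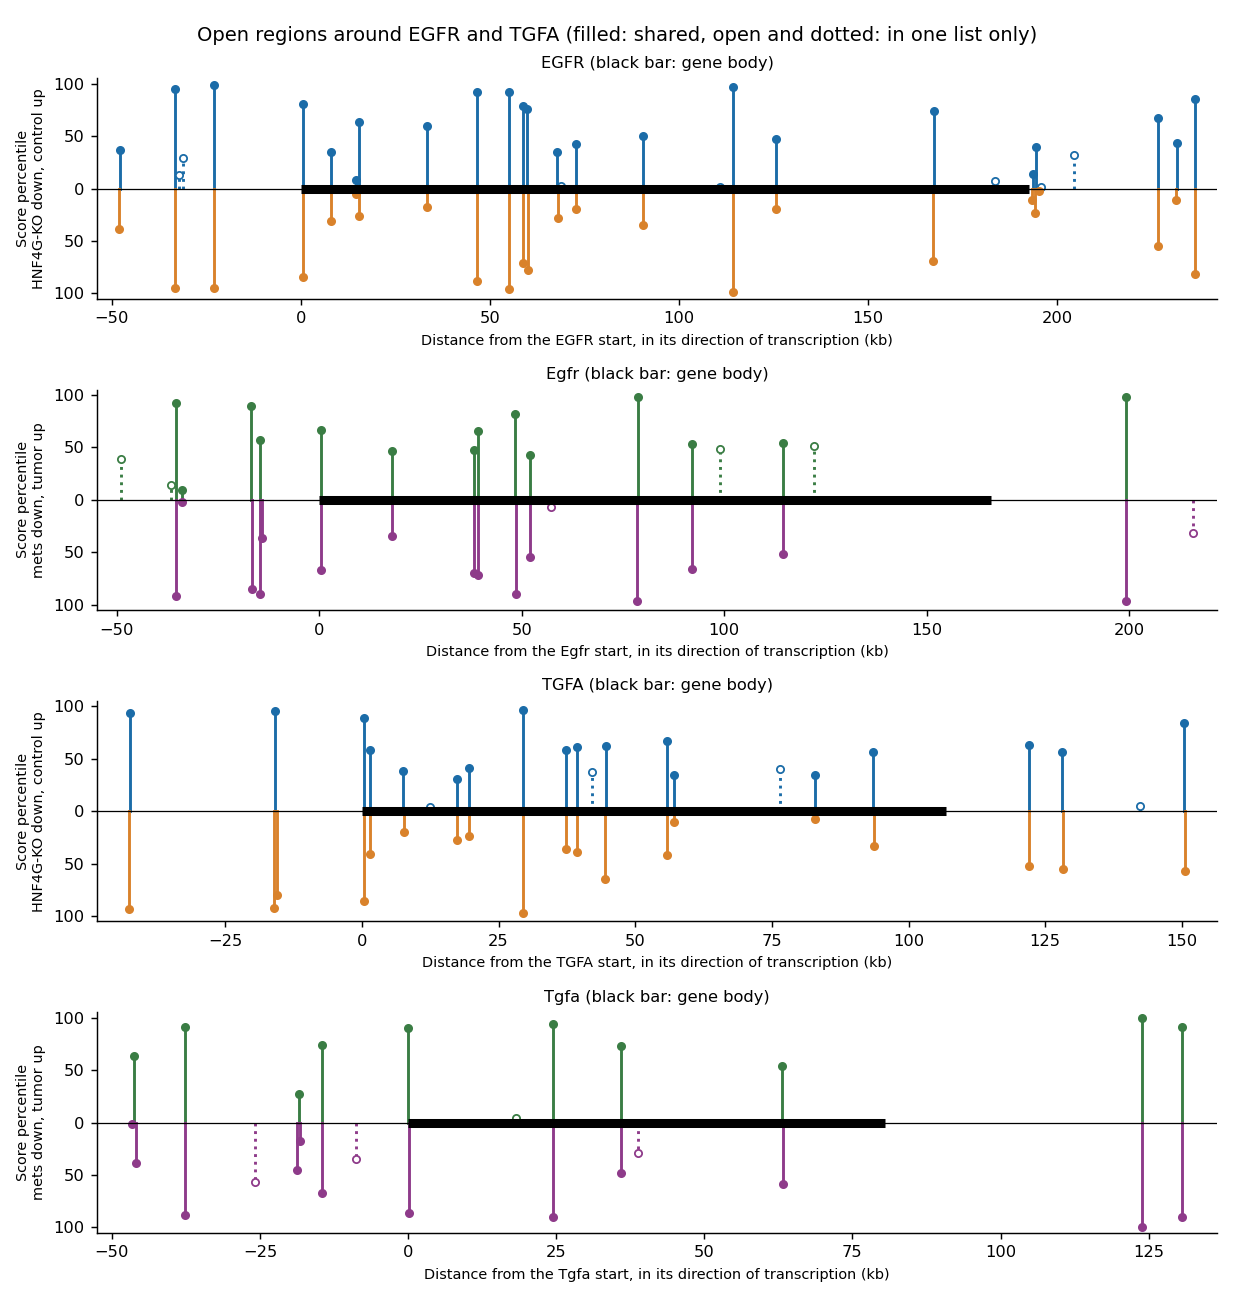
Open regions around EGFR, Egfr, TGFA and Tgfa, placed by distance from the start of the gene in its direction of transcription (horizontal axis, kb), with height giving score percentile (vertical axis, control or tumor upwards, HNF4G-KO or mets downwards). Black bars are gene bodies, filled circles shared regions and open circles regions in 1 list only. The tallest stems are of like height on both sides, and many middle-height stems of TGFA and EGFR are shorter in HNF4G-KO. Relative to all shared control regions of the same score decile, the median changes were -7.455 for TGFA and -2.06 for EGFR.

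Whole regions were searched for short consensus sequences, reading both strands, and matches are given only as letters. The HNF4 letters CAAAGTCCA were found in 2 of 145 family regions of control (1.38%), against 1.596% of all control regions, and in 0 of 31 control-only regions of the family, where 1.43% of all control-only regions held them, so that fewer than 1 would be reached at that share. Over all shared control regions the median change was -6.50 with the HNF4 letters and -4.61 without them. Neither of the 2 family regions was ranked lower in HNF4G-KO, which is too few to set against those medians. One lies over the start of GRB7, an adaptor gene next to ERBB2, and went from percentile 65.6 to 65.8. Its HNF4G-KO partner (chr17:39737503-39738429) begins past the letters and does not hold them, so the rank does not describe the letters themselves. The other lies 34.4 kb downstream of the HBEGF start and went from 41.4 to 46.1. A stretch of each around the letters is shown, with HNF4 and AP-1 letters in capitals (chr17:39737388-39737687 and chr5:140312080-140312379, hg38, plus strand).

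GRB7 start, ERBB2 window: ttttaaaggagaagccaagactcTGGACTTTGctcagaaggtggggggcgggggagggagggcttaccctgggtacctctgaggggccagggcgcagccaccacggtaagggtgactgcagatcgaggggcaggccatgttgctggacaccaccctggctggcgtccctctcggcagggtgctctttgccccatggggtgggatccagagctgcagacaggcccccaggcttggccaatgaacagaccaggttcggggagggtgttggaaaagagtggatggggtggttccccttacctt

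HBEGF downstream: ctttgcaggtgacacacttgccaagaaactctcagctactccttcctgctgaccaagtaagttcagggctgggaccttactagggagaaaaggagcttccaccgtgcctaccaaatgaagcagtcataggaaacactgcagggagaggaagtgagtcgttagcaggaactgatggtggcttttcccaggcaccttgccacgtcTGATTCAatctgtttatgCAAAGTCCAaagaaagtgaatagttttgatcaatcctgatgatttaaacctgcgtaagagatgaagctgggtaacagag

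The AP-1 letters were the most frequent, in 71 of 145 family regions of control (49.0%, against 39.1% of all), 58 of 121 of HNF4G-KO (47.9%, against 39.2%), 57 of 111 of tumor (51.4%, against 46.0%) and 55 of 125 of mets (44%, against 43.7%), the last with no excess. The patterns differ in length and the AP-1 one leaves a base open, so their frequencies are not comparable with each other. FOXA letters TGTTTAC were in 20 of 145 regions of control (13.8%, against 9.76%), 15 of 121 of HNF4G-KO (12.4%, against 9.51%), 16 of 111 of tumor (14.4%, against 9.71%) and 21 of 125 of mets (16.8%, against 8.90%). GATA letters were in 10 of 145 control regions (6.90%, against 6.63%), TEAD letters ACATTCCA in 7 (4.83%, against 3.60%), RUNX letters in 8 (5.52%, against 4.90%) and ETS letters CCGGAAGT in 2 (1.38%, against 1.75%). Family regions were wider than the rest, with a median of 501 bp in control against 462 bp, 569 bp in tumor against 516 bp and 464 bp in mets against 409 bp, and the part of width in these shares was not tested.

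In the mouse pair, 14 of 111 tumor regions of the family were tumor-only, or 12.6% (7.66 to 20.1), against 8.51% of all tumor regions. Of 125 mets regions, 20 were mets-only, or 16.0% (10.6 to 23.4), against 20.2% of all. Both backgrounds lay within the intervals. Tumor-only regions were found at Egfr (4 of 18), Areg (3 of 13), Ereg (2 of 16, 1 of them also in the Areg window), Hbegf (2 of 20), Erbb2 (1 of 14), Erbb3 (1 of 17), Tgfa (1 of 11) and Btc (1 of 8). The Egfr share of 22.2% had an interval of 9.001 to 45.2, above the background, and the other members' intervals held it. The strongest tumor-only region, at percentile 51.8, lay in an intron of Egfr 122 kb from its start. Areg and Ereg, with 11 and 15 regions in mets, had no mets-only region.

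Erbb4 (chr1:68032186-69108059, mm10) had no region in tumor and 3 in mets, all intronic and hence mets-only. One stood high, at percentile 91.3, 387 kb from the start, and the others at 39.7 and 38.2. Over all mets regions above percentile 75, 1.43% were mets-only, and this was the only such region of the family. The 300 bases shown contain the FOXA letters on the minus strand, in capitals (chr1:68720758-68721057, mm10, plus strand).

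Erbb4 intron, mets-only: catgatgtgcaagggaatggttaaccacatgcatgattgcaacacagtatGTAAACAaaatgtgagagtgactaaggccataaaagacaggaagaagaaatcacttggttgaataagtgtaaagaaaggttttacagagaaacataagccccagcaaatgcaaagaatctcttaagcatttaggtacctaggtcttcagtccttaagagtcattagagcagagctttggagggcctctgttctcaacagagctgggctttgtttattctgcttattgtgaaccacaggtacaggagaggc

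Other mets-only regions above the middle of the list lay in an intron of Btc 35.8 kb from its start, at percentile 65.2, and 25.8 kb upstream of Tgfa, at 57.1. FOXA letters were in 5 of the 20 mets-only family regions, at Erbb2, Erbb3, Erbb4 and Tgfa (2), where 7.59% of all mets-only regions held them. They were in 0 of 14 tumor-only family regions, against 5.92% of all, and in 2 of 31 control-only ones, against 6.22%. Of the same 20 mets-only regions, 4 held AP-1 letters, against 40.4% of all mets-only regions. TEAD and RUNX letters were in 1 each, and HNF4, GATA and ETS letters in 0. These counts are small and their differences from the list shares were not tested.

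Among shared regions of the mouse pair, 8 of 97 were ranked at least 10 points lower in mets, against 12.4% of all, and 20 of 97 at least 10 points higher, against 30.8% of all. Receptor genes had a median change of 5.97 (1.18 to 8.69, 43 regions) and ligand genes of -0.0991 (-3.61 to 3.53, 54 regions), beside 3.67 for all. With lists of equal size these became 0.335 (-2.23 to 5.73) and -5.68 (-8.96 to -1.80). No median over all shared regions is given for that setting, so these values have no background beside them. Among shared regions only, the receptor median was 2.63 (-0.998 to 6.78) and the ligand median -3.39 (-6.62 to -0.325), beside 0.988 for all. By gene the medians were 7.48 for Erbb3, 5.65 for Erbb2 and 0.0894 for Egfr, then 6.81 for Btc, 1.27 for Areg, 0.546 for Ereg, -0.233 for Hbegf and -3.65 for Tgfa. Among shared regions only they were 5.01 for Erbb3, 4.02 for Btc, 2.14 for Erbb2, -0.587 for Areg, -1.64 for Egfr, -3.16 for Hbegf, -3.67 for Ereg and -5.87 for Tgfa, so that Areg, Egfr and Ereg turned sign. On the first scale, none of these 8 genes reached a median of 10 points, as 10.3% of 13061 protein-coding genes did. Egf had 3 shared regions.

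By median change Erbb3 and Tgfa stood at opposite ends of the members ranked. Of all shared tumor regions 35.1% were ranked lower in mets, and 28302 of 62280 when ranked among shared regions only. On chromosome 10, which holds Erbb3, 790 of 3116 were lower, with a median change of 7.05, near the Erbb3 median of 7.48. On chromosome 6, which holds Tgfa, 1283 of 3569 were lower, with a median of 3.26. Of 16 shared Erbb3 regions 1 was ranked lower and 15 higher, or 3 lower when ranked among shared regions only, and the largest gains were an intronic one 5.81 kb from the start that went from percentile 8.78 to 52.0 and one 33.1 kb downstream of the start that went from 7.17 to 47.5. Of 10 shared Tgfa regions, 9 were ranked lower in mets, or all 10 among shared regions only. Among them were an intronic one 35.9 kb from the start, from 72.6 to 48.5, and one 46.2 kb upstream, from 63.6 to 38.6. The upstream one did not pair 1 to 1 with a mets region. The strongest Tgfa region, 124 kb from the start and downstream of the gene, stood at 99.8 and 99.4. The Tgfa median of -3.65 had 5.18% of genes below it, and the Erbb3 median had 78.6% below it. The largest fall in the family was at Hbegf, 18.9 kb upstream of its start, from 74.3 to 49.1, and another gain was in an intron of Egf, from 14.8 to 48.5. The strongest Egfr region, 78.6 kb into the gene, stood at 98.0 and 96.6.

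The wider pathway was read from 48 genes for other ligands, sheddases, adaptors, feedback inhibitors and kinases, all of which were found in both annotations. Of their regions, 125 of 622 in control were control-only (20.1%), 31 of 533 in HNF4G-KO were KO-only (5.82%), 38 of 542 in tumor were tumor-only (7.01%) and 98 of 627 in mets were mets-only (15.6%), each below the background share of its list. Among genes with at least 5 regions in the list, control-only shares were high at PTPN11, a phosphatase that relays receptor signals (6 of 12), and ADAM17, a sheddase of several of these ligands (5 of 11). Of 42 pathway genes with at least 5 shared control regions, 5 had a median change at or under -10, close to the 10.5% of all protein-coding genes, namely SPRED1 (-17.2) and SPRY1 (-15.6), which restrain RAS–MAPK signalling, the adaptors GAB1 (-13.7) and NCK1 (-11.1), and PLCG1 (-10.3). None reached 10, and the median over the 42 was -1.57. The KO-only share was highest at the neuregulin gene NRG4 (2 of 6), and NCK1 (3 of 15) and PIK3CA (2 of 10) had the same share as each other.

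In the mouse, among genes with at least 5 regions in the list, tumor-only shares were highest at Eps15 (2 of 9), Nrg1 and Nrg2, at 22.2%, 20% and 18.2%. Mets-only shares were highest at Lrig3 (5 of 7) and Spred1 (4 of 9), followed by Ptpn11 and Spry1 (each 3 of 8). Of 43 genes with a median change, Dusp6, a MAPK phosphatase, had 10.1 and Nrg1 -13.9, and no other reached 10 points either way, beside 10.3% of all protein-coding genes at or over 10 and 102 of 13061 at or under -10.

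The median member window was denser in open regions than the median gene window, with 10.4 regions per 100 kb in control against 6.82 over 20033 protein-coding genes, 8.69 against 5.78 in HNF4G-KO, 8.97 against 4.74 in tumor and 9.21 against 5.54 in mets. Hbegf was at the extreme, with 99.4% of mouse genes below it in tumor, and ERBB4 at the other end, with 3.65% of human genes below it in control. By counts of regions and of one-list regions in the human pair, among genes with a window of similar length, the gene most like EGFR was GRB10, with all 4 counts equal (1 of 1972 genes compared), then PLEKHM3 and TBC1D14. The gene most like TGFA was ITGB5, again with equal counts (1 of 4172), then DAGLB and ELOVL6 among ties. Mouse Erbb4 matched Dgkb (1 of 80) and Hbegf matched Rab3il1 (1 of 15646), and for the remaining members the nearest genes were tied with others or differed in their counts.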

How the data were processed

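Omni-ATAC-seq libraries were sequenced by the authors as paired-end reads. The submitters' processing notes name Bowtie2 2.2.6, MACS2 2.1.1.20160309 and DiffBind with builds hg38, mm10, GRCh38 and GRCm38; the study's methods give their roles and settings for ChIP-seq, and those used for these ATAC lists are not given in the sources used here. The authors deposited 1 region list for each of 4 groups, with positions and a whole-number score of unstated scale, and each list stands for 4 replicates. No region reached past a chromosome end of hg38 or mm10.

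Scores were turned into mid-rank percentiles within a list. Pairing used python 3.11.15 with pandas 2.3.3, took the partner with the longest overlap, and was tested on simulated lists and against bedtools 2.31.1. Genes came from GENCODE v44 and vM21 and sequences from the hg38 and mm10 genomes. Shares carry 95% Wilson intervals, and a count of 0 allows up to 3 counts. The members were given by name, and members, pathway genes and markers were chosen with earlier results of these data known. Named were the members, their start-site, strongest and one-list regions, the 3 largest rises and falls of each pair, and pathway genes by one-list share or a change of 10 points. Some pathway genes that this rule names are not reported here. Alternatives were other flanks, overlaps, list sizes, distal regions, leaving out chromosome 4 members, ranking among shared regions, and 1 added after seeing the data, changes relative to shared regions of the same score decile.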

Additional observations from a re-analysis of the deposited data

How the results depend on the processing

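The control-only share of the family was 21.4% as reported and 14.4% when both human lists were cut to equal size. The mets-only share was 16.0% and became 24.4% over gene bodies alone. Values over all regions are not given for lists of equal size or for gene bodies alone. Whether the family moved apart from its whole list under these settings is thus not shown. The median change of shared family regions from control to HNF4G-KO was -4.65 as reported, -2.54 between the upper 50% of each list, -0.762 with lists of equal size, -1.86 relative to shared regions of the same score decile (chosen after seeing the data) and 0.534 when ranked among shared regions only. From tumor to mets it was 2.43 as reported, -2.23 with lists of equal size, -0.354 among shared regions and -1.34 relative to the score decile. List length enters a percentile by construction, so the sign of the family median is not read in either pair. The ligand median of the human pair was negative in every alternative run, from -17.8 for distal regions to -5.02 with lists of equal size, but its interval reached past 0 with lists of equal size (-10.2 to 0.953) and among shared regions (-8.70 to 1.49). The receptor median of that pair ranged from -4.46 to 1.58. From tumor to mets the receptor median ranged from 0.335 with lists of equal size to 10.5 in the upper 50%, and the ligand median from -5.68 with lists of equal size to 3.53 with flanks of 10 kb. No paired analysis was possible because each group has 1 list for its 4 numbered replicates, and for the same reason no replicate could be left out. Depth behind each list is unknown, so a missing region says only that none was listed.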
